A study of Homo sapiens with 24 samples.

Results

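YAP and its paralog TAZ are transcriptional coactivators that bind no DNA themselves and act mainly through the TEAD transcription factors. The Hippo kinases phosphorylate both coactivators and keep them in the cytoplasm, whereas growth at low density, a stiff substrate or contractile stress fibers let them enter the nucleus. In lung epithelium and lung fibroblasts the pathway is known for its part in regeneration, fibrosis and tumor growth, and a small group of direct target genes serves as its usual readout. Expression of 9 such genes was described here in human lung adenocarcinoma cells given the anti-fibrotic drug Pirfenidone. CTGF and CYR61 (now CCN2 and CCN1) encode secreted matricellular proteins, ANKRD1 encodes an ankyrin repeat protein of the nucleus and sarcomere, THBS1 encodes thrombospondin 1, and AXL encodes a receptor tyrosine kinase. AMOTL1 and AMOTL2 encode angiomotin family scaffolds that can hold YAP outside the nucleus, LATS2 encodes a Hippo kinase that phosphorylates YAP, and TEAD1 encodes one of the TEAD factors. The members were all probes whose gene name in the array files was one of these 9, which gave 11 probes of 34127 on the array and 9 of 24655 gene names, with a pair of probes each for AMOTL1 and THBS1.

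The study treated A549 and H1975 cells, both established human lung adenocarcinoma lines, with Pirfenidone at 0.75 mg/ml or an equal volume of PBS, for either 6 h or 24 h. Each of the 8 groups of line, treatment and time held 3 samples, and each of the 24 samples had its own one-color Agilent array, on which the brightness of a spot measures the labeled RNA bound by its probe. The labels number the samples and do not say whether they came from separate cultures, so p-values measure the spread between these samples, which may be technical. Each line was treated as a bulk culture, in which fewer expressing cells and less RNA per cell cannot be told apart.

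Levels are given as the log2 of the processed signal relative to the 75th percentile of the array, and differences as log2 differences with Pirfenidone minus PBS, H1975 minus A549 or 24 h minus 6 h. A probe passed the test at a limma adjusted p (Benjamini-Hochberg over 23827 probes) of 0.05 or less and a log2 difference of at least 1 in size. Groups are said not to overlap where every array of one lies below every array of the other. The share of all probes without overlap was not counted, so a lack of overlap is a description only. Signal well above background was seen for 62.7% to 69.5% of probes per array. Each of the 11 member probes exceeded background on all 24 arrays and was tested, and none was saturated. The arrays fell into 4 runs, a run being the arrays whose files carry the same date, and 7 slides. Within each line and time the 3 runs it used held 1 Pirfenidone and 1 PBS array each, so differences could also be taken within a run. The place of an array on its slide was set by its treatment and time, so place and treatment cannot be told apart. Each line carried keratin signals of an epithelial line, with KRT7, KRT8 and KRT18 well above background on all 24 arrays. Of the 6 epithelial markers listed, EPCAM, KRT19 and CDH1 were higher in H1975 in PBS at 6 h, with log2 differences of 3.49, 2.06 and 1.77. KRT8 was lower there, at -1.69. All 5 NRF2-driven genes listed as marks of A549 were lower in H1975, with log2 differences from -11.92 for ALDH3A1 to -9.59 for AKR1C1 in PBS at 6 h, where ALDH1A1 was not well above background on 2 of 3 H1975 arrays. CDKN2A and CDKN2B, which A549 is known to lack, were higher in H1975 (log2 difference 4.64 and 3.98 in PBS at 6 h), although the CDKN2A probe was well above background in A549 too. The brightest probe of their neighbor MTAP went against that list, with a log2 difference of -2.21.

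Promoters were to be shown for CTGF, CYR61 and ANKRD1, because TEAD factors are known to bind the letters GGAATG. CYR61 had none among the promoters given, so those of CTGF and ANKRD1 are shown. The table of RefSeq promoters (GRCh38.p14) reaches from 250 bases before to 50 bases after a gene's start and held 7 of the 9 members. GGAATG or its reverse complement CATTCC stood in 4928 of all 35116 promoters of this length, 14.03% of them. It stood in a promoter of 6 of the 7 members, namely CTGF, ANKRD1, LATS2 and THBS1, and 1 of the 2 promoters listed for AMOTL2 and for AXL. Counted by promoter, as for the share of all promoters, these were 6 of 9. The members were listed as YAP/TEAD targets, and their share was not tested against that of all promoters. The AMOTL1 promoter held neither form. CTGF held 3 copies and ANKRD1 held 2, all as GGAATG on the gene's own strand, and the other 4 members held 1 each. A match of letters is a description of the sequence and not a measured binding site. The 250 bases before the start of each gene are given on the gene's strand, with GGAATG in capitals.
CTGF promoter, chr6:131951373-131951622, minus strand: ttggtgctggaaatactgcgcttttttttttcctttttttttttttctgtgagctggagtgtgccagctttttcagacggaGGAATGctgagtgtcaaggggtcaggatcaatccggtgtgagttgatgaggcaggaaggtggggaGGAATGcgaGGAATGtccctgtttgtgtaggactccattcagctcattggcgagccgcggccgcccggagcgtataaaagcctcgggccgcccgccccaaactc
ANKRD1 promoter, chr10:90921088-90921337, minus strand: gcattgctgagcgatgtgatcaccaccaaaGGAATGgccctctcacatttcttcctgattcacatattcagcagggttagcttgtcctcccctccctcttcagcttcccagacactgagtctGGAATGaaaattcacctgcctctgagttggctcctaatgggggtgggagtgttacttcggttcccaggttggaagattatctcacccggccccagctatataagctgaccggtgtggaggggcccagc
The 3 copies in CTGF began 169, 104 and 95 bases before the start, and those in ANKRD1 began 220 and 128 bases before it. The pair nearest the start of CTGF was thus closely spaced, and the copies in ANKRD1 were farther apart.

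**Figure D1:**
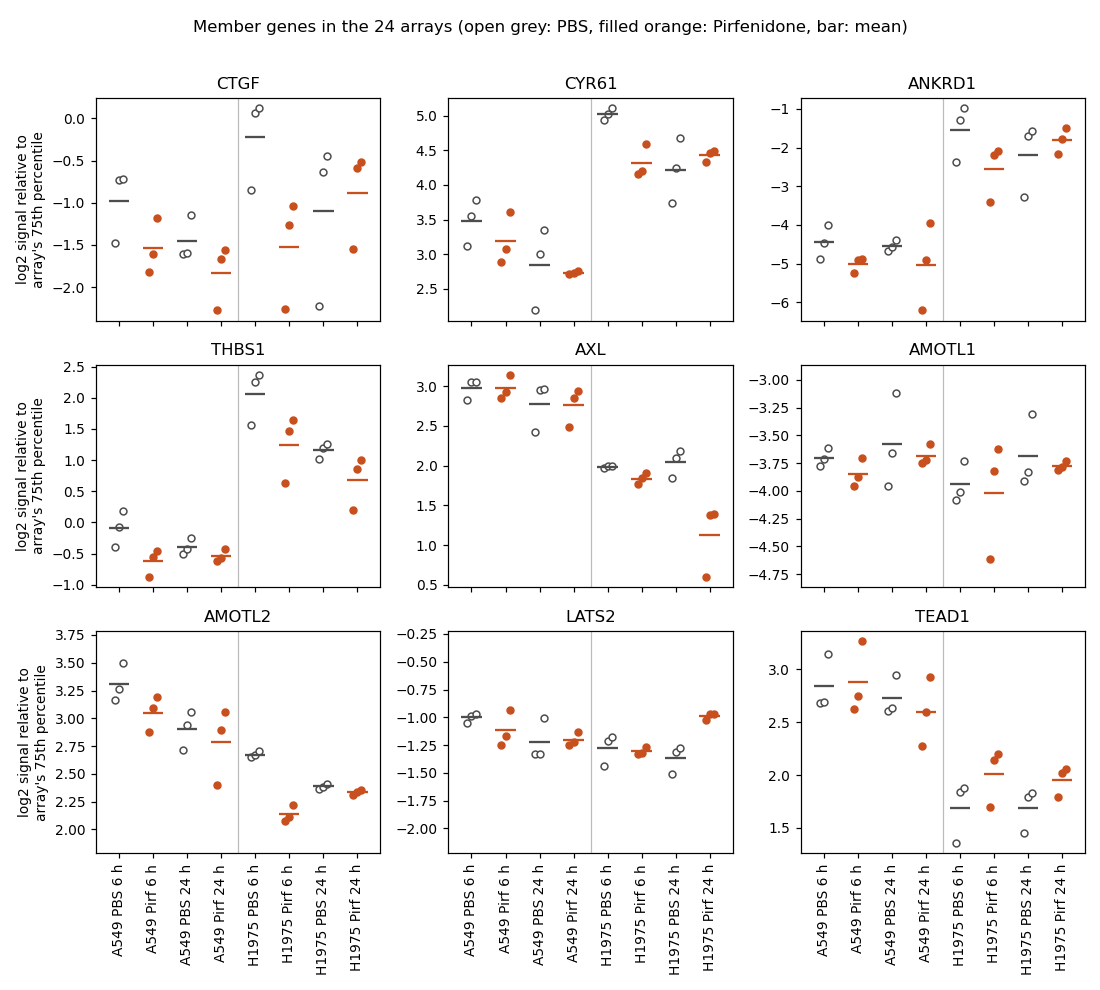
Level of each of the 9 genes (brightest probe) on every array, as log2 signal relative to the array's 75th percentile (y axis, scaled separately for each gene) in the 8 groups of 3 arrays (x axis). Points are arrays, bars are group means, open points are PBS and filled points Pirfenidone. In H1975 at 6 h the CTGF points lie between -0.84 and 0.12 with PBS and between -2.26 and -1.03 with Pirfenidone.

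In H1975 cells at 6 h most targets were lower with Pirfenidone than with PBS. Of the 11 member probes 10 were lower, with a median log2 difference of -0.60 beside 0.05 over all 23827 probes tested. None passed the test with limma in the fit of 8 groups, where 117 probes (0.491%) passed, and 6 of the 11 had an unadjusted p under 0.05 beside 2629 of all probes.
CTGF is the most widely used target gene, and its probe lies at chr6:132270130-132270189 of hg19 on the minus strand. Its levels in replicates 1, 2 and 3 were -0.84, 0.12 and 0.07 with PBS and -1.03, -1.27 and -2.26 with Pirfenidone. All 3 Pirfenidone arrays were below all 3 PBS arrays. The log2 difference was -1.30 (standard error 0.43, limma adjusted p = 0.185), a 2.47-fold lower mean.
The replicate numbers do not follow the runs in H1975 at 6 h. Each group held a single array of each run it used, so the spread within a group cannot be told from that between runs. The array of run 1 was the lowest for CTGF in each of the 4 H1975 groups, which held for 6 member probes and for 20.8% of all probes tested. Within runs 1, 3 and 4 the CTGF difference was -1.42, -1.15 and -1.34. With run as a block CTGF passed the test (standard error 0.27, limma adjusted p = 0.0138), as did 0.73% of all probes. It also passed with run within each line as a block (limma adjusted p = 0.000351, 0.949% of all probes), a setting chosen after the data were seen. With slide as a random block it passed too (limma adjusted p = 0.00355, 0.94% of all probes). Within a line the slides followed the runs except for H1975 PBS replicate 1 at 24 h, so both settings group the arrays nearly alike. Over all 19 alternative settings the difference lay between -1.61 and -0.93 and the limma adjusted p between 0.000351 and 1.

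CYR61 is a close relative of CTGF and was lower in H1975 at 6 h by a smaller amount. Its probe lies at chr1:86048953-86049012 of hg19. Levels were 4.94, 5.10 and 5.02 with PBS and 4.58, 4.15 and 4.20 with Pirfenidone, without overlap. The PBS arrays were close to each other, and the difference of -0.71 (standard error 0.26, limma adjusted p = 0.266) lay between -0.86 and -0.52 within the 3 runs. With run as a block its limma adjusted p was 0.0724.
ANKRD1 is a target that is induced strongly by mechanical load in muscle. Its probe lies at chr10:92672562-92672621 of hg19 on the minus strand. Levels were -2.37, -1.30 and -0.99 with PBS and -2.18, -2.10 and -3.42 with Pirfenidone. The groups overlapped, since the PBS array of run 1 lay below the Pirfenidone arrays of runs 3 and 4. The difference was -1.01 (standard error 0.51, limma adjusted p = 0.499), and within runs 1, 3 and 4 it was -1.05, -0.88 and -1.11. With run within each line as a block the standard error was 0.36 and the limma adjusted p 0.108.

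THBS1 encodes a secreted glycoprotein that can activate latent TGFβ. Its brighter probe lies at chr15:39888831-39888890 of hg19 and the second at chr15:39874546-39874605. In H1975 at 6 h the brighter probe gave 1.56, 2.25 and 2.37 with PBS and 1.64, 1.47 and 0.63 with Pirfenidone. The groups overlapped by 1 array on each side, both from different runs. The difference was -0.81 (standard error 0.26, limma adjusted p = 0.15), and the second probe gave -0.82 (standard error 0.26, limma adjusted p = 0.149), so the probes gave nearly the same value. Within runs 1, 3 and 4 the brighter probe was lower, at -0.94, -0.61 and -0.90. With run as a block its limma adjusted p was 0.0107, and its size stayed under the fold limit.
AXL, whose probe lies at chr19:41767395-41767454 of hg19, differed little at this time. Levels were 1.99, 1.97 and 1.99 with PBS and 1.84, 1.76 and 1.91 with Pirfenidone, and every Pirfenidone array was below every PBS array. The difference of -0.15 (95% interval -0.54 to 0.25, limma adjusted p = 0.902) was small beside the standard error of 0.19 that the fit gave.

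Among the genes that restrain YAP, AMOTL2 was lower in H1975 at 6 h and LATS2 was not distinguishable. The AMOTL2 probe lies at chr3:134074742-134074801 of hg19 on the minus strand, and its levels were 2.70, 2.65 and 2.67 with PBS and 2.22, 2.08 and 2.11 with Pirfenidone. The arrays of each group lay close together and the groups did not overlap. The difference was -0.54 (standard error 0.14, limma adjusted p = 0.0677), the smallest adjusted p of the 11 member probes in this comparison, and it was -0.59, -0.42 and -0.59 within the runs. With run as a block the limma adjusted p was 0.0486, with the difference still under the fold limit.
The AMOTL1 probes gave unlike values, and the difference between the probes was not tested. The brighter one (chr11:94609844-94609903 of hg19) gave -0.08 (limma adjusted p = 0.973), while the second, which maps in 2 pieces between 94554977 and 94563264 of the same chromosome, gave -0.60 (limma adjusted p = 0.42). Under normexp background correction, which moved the median of all probes to 0.29, they gave 0.46 and 0.49. LATS2 (chr13:21547929-21547988 of hg19, minus strand) gave -0.03 with a 95% interval of -0.26 to 0.20 (limma adjusted p = 0.979). TEAD1 (chr11:12965225-12965284 of hg19) was the only member probe that was higher, at 1.36, 1.84 and 1.87 with PBS and 2.14, 2.20 and 1.69 with Pirfenidone. Its difference of 0.32 (standard error 0.21, limma adjusted p = 0.666) was 0.34, 0.31 and 0.33 within runs 1, 3 and 4. With run within each line as a block its limma adjusted p was 0.0364, at a size under the fold limit. Under normexp correction the log2 difference of TEAD1 was 0.09, below the median of 0.29 over all probes.

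**Figure D2:**
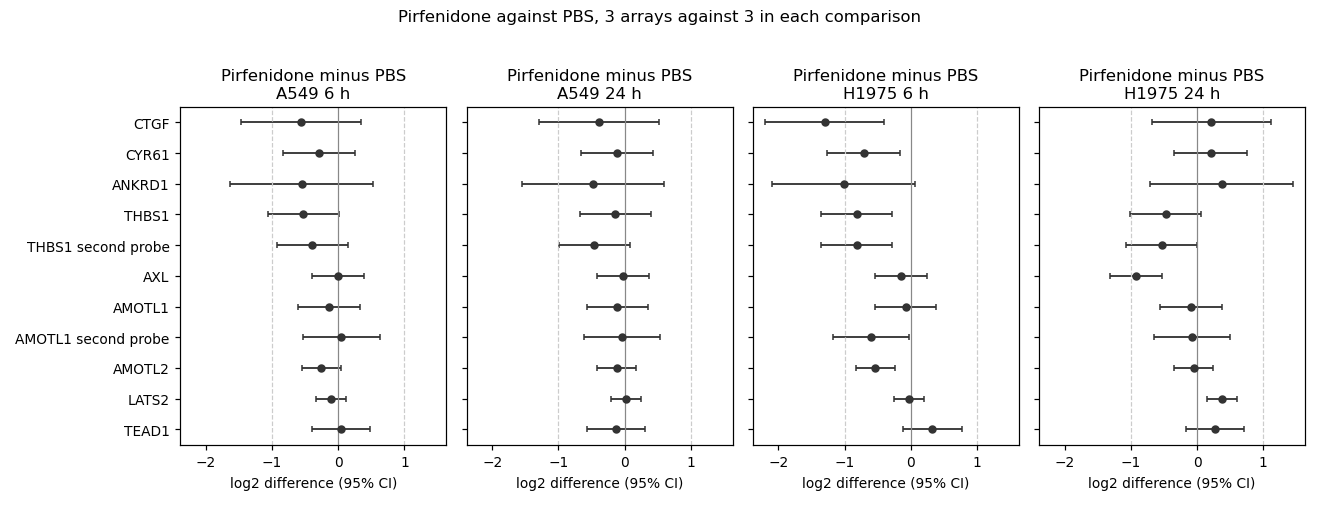
Log2 difference of each member probe, Pirfenidone minus PBS (x axis, bars are 95% intervals of the limma fit), in the 4 comparisons of 3 arrays against 3, with dashed lines at the fold limit. In H1975 at 6 h 10 of 11 points lie below 0 and CTGF is lowest at -1.30, and in H1975 at 24 h AXL is lowest at -0.92.

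At 24 h in H1975 AXL was lower and LATS2 higher with Pirfenidone than with PBS, and the arrays of CTGF, CYR61 and ANKRD1 overlapped between the treatments. Of the 11 member probes 6 were lower and 5 higher, with a median of -0.05 beside 0.02 over all probes. No member passed the test with limma, where 451 probes (1.89%) passed, and 2 had an unadjusted p under 0.05 beside 5232 of all probes. Both of these, AXL and LATS2, had a limma adjusted p of 0.05 or less with a size under the fold limit. Without that limit 6.26% of all probes passed.
AXL had levels of 2.19, 2.10 and 1.85 with PBS and 1.39, 1.37 and 0.60 with Pirfenidone. All 3 Pirfenidone arrays were below all 3 PBS arrays, and the lowest array of each group was that of run 1. The difference was -0.92 (standard error 0.19, limma adjusted p = 0.01), a 1.90-fold lower mean, and within runs 1, 3 and 4 it was -1.25, -0.80 and -0.72. It reached the fold limit when PBS replicate 3 (-1.02), Pirfenidone replicate 1 (-1.06) or Pirfenidone replicate 2 (-1.05) was left out, with a limma adjusted p between 0.0109 and 0.0214 in these settings. Without Pirfenidone replicate 3, the array of run 1, AXL gave -0.66 with a limma adjusted p of 0.0631, and a fit of only the 6 arrays compared gave a limma adjusted p of 0.0976.
LATS2 had levels of -1.31, -1.27 and -1.51 with PBS and -1.02, -0.97 and -0.97 with Pirfenidone, without overlap. The difference was 0.38 (standard error 0.11, limma adjusted p = 0.0442), and it was 0.54, 0.29 and 0.31 within the runs. With run as a block the limma adjusted p of LATS2 was 0.0111, but it was over the threshold when any 1 of the 6 arrays was left out (between 0.0656 and 0.161), under normexp correction (0.208), in the authors' processed values (0.0656) and without the filter on dim probes (0.0681).

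THBS1 was lower on both probes at 24 h, with levels of the brighter probe at 1.26, 1.196 and 1.02 with PBS and 0.86, 0.999 and 0.19 with Pirfenidone. The groups did not overlap, and the Pirfenidone array of run 1 lay apart from the other two. The difference was -0.47 (standard error 0.26, limma adjusted p = 0.292), and the second probe gave -0.53 (limma adjusted p = 0.231), also without overlap. With run within each line as a block the limma adjusted p was 0.0259 for the brighter and 0.0422 for the second probe, both under the fold limit.
CTGF had levels of -0.45, -0.63 and -2.22 with PBS and -0.59, -0.52 and -1.55 with Pirfenidone. The groups overlapped, with the arrays of runs 3 and 4 at almost the same level under both treatments. The difference was 0.22 (95% interval -0.69 to 1.12, limma adjusted p = 0.85), and it turned to -0.34 without PBS replicate 3. CYR61 gave 0.21 and ANKRD1 0.37, with limma adjusted p of 0.726 and 0.759 and with differences of both signs among the runs, and both turned negative, to -0.03 and -0.17, without the same array. AMOTL2 differed by -0.05 (95% interval -0.34 to 0.24), although its Pirfenidone arrays at 2.34, 2.35 and 2.31 were all below its PBS arrays at 2.41, 2.37 and 2.38.

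The change of the drug difference between 6 h and 24 h in H1975 was tested directly, as the difference at 24 h minus that at 6 h. No member passed with limma, where 1 probe (0.0042%) passed, and 5 members had an unadjusted p under 0.05 beside 1396 of all probes. The largest was CTGF at 1.52 (standard error 0.61, limma adjusted p = 0.742), followed by ANKRD1 at 1.38 and CYR61 at 0.92. With run within each line as a block CTGF passed (standard error 0.23, limma adjusted p = 0.019), as did 0.189% of all probes, whereas with run as a block shared by the lines its limma adjusted p was 0.217. AXL gave -0.78 (limma adjusted p = 0.61) and LATS2 0.41 (limma adjusted p = 0.68). The array of PBS replicate 1 at 24 h lay on a slide of its own, and leaving out each array in turn kept the sign of the CTGF, CYR61, ANKRD1, AMOTL2, LATS2 and AXL changes.

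**Figure D3:**
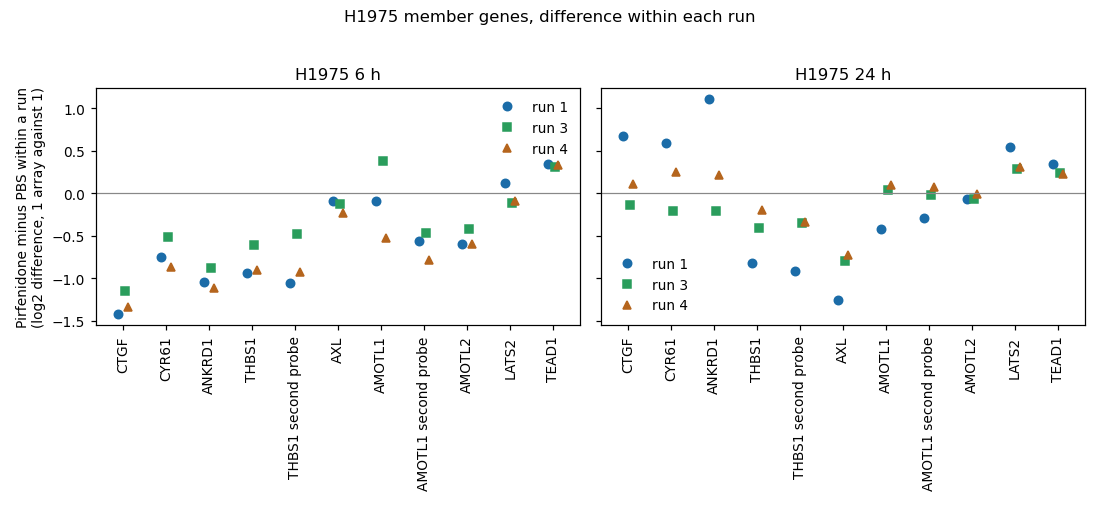
Log2 difference in H1975 between the Pirfenidone and the PBS array of the same run (y axis) for the 11 member probes (x axis), at 6 h and at 24 h, with 1 symbol for each of runs 1, 3 and 4. At 6 h all 3 runs lie between -1.42 and -1.15 for CTGF, and at 24 h they lie on both sides of 0 for CTGF, CYR61 and ANKRD1 and between -1.25 and -0.72 for AXL.

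In A549 cells no member passed the test at either time. At 6 h 9 of 11 probes were lower with Pirfenidone, with a median of -0.25 beside -0.01 over all probes. With limma 42 probes (0.176%) passed and no member had an unadjusted p under 0.05, beside 1433 of all probes. CTGF had levels of -1.48, -0.73 and -0.71 with PBS and -1.83, -1.18 and -1.61 with Pirfenidone, which overlapped. Its difference was -0.56 (95% interval -1.46 to 0.34, limma adjusted p = 1), and it was lower in each run, at -0.89 in run 1, -0.35 in run 2 and -0.44 in run 3. THBS1 was the one gene whose arrays did not overlap, with both probes lower, at -0.53 (limma adjusted p = 0.842) and -0.39 (limma adjusted p = 1). The other members lay between -0.55 for ANKRD1 and 0.05 for the second AMOTL1 probe, and AXL differed by less than 0.01 with a 95% interval of -0.40 to 0.39.
At 24 h 10 of 11 probes were lower, with a median of -0.12 beside -0.02 over all probes. With limma 3 probes (0.0126%) passed, and no member had an unadjusted p under 0.05, beside 227 of all probes. The difference within run 1, the pair of replicate 3, went against the other runs for several targets. For ANKRD1 it was 0.71 in run 1, -0.33 in run 2 and -1.81 in run 3, and for CYR61 it was 0.56, -0.28 and -0.62. Without both arrays of replicate 3 ANKRD1 gave -1.07, CTGF -0.60 and CYR61 -0.45, with limma adjusted p of 0.676, 0.868 and 0.741, and no member passed. AXL, which was lower in H1975 at 24 h, gave -0.02 in A549 (95% interval -0.42 to 0.38).

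The drug differences of the lines were set against each other, as H1975 minus A549. At 6 h no member passed with limma, 8 probes of all (0.0336%) did, and no member had an unadjusted p under 0.05 beside 626 of all probes. CTGF gave -0.74 with a 95% interval of -2.02 to 0.54, so the lower CTGF in H1975 was not shown to be particular to that line. At 24 h no member passed, 46 probes of all (0.193%) did, and 2 members had an unadjusted p under 0.05 beside 2904 of all probes. They were AXL at -0.90 (standard error 0.27, limma adjusted p = 0.164) and LATS2 at 0.36 (standard error 0.15, limma adjusted p = 0.337). In A549 the change of the drug difference between the times gave no member that passed, 7 probes of all (0.0294%) that did, and no member with an unadjusted p under 0.05 beside 725 of all probes.

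Most member probes were lower at 24 h than at 6 h in PBS alone, without passing the test. In H1975 9 of 11 member probes were lower at 24 h than at 6 h, with a median of -0.29 beside 0.04 over all probes. No member passed with limma, 75 probes of all (0.315%) did, and 3 members had an unadjusted p under 0.05 beside 2526 of all probes. THBS1 was lower, at -0.90 on the brighter and -0.92 on the second probe (limma adjusted p = 0.122 and 0.116), as were CTGF at -0.88 (limma adjusted p = 0.487) and CYR61 at -0.80 (limma adjusted p = 0.203). The PBS arrays of THBS1 and CYR61 did not overlap between the times, whereas those of CTGF did. With run as a block the limma adjusted p was 0.00847 for the brighter THBS1 probe and 0.0464 for CYR61, both under the fold limit. For these genes the drug differences in H1975 at 6 h and at 24 h were thus taken against PBS levels that did not overlap.
In A549 9 of 11 probes were lower at 24 h, with a median of -0.20 beside 0.02 over all probes. No member passed with limma, 26 probes of all (0.109%) did, and 2 had an unadjusted p under 0.05 beside 2022 of all probes, namely CYR61 at -0.64 and AMOTL2 at -0.40 (limma adjusted p = 0.527 and 0.42).

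The clearest differences of the members lay between the lines. Each slide held arrays of a single line, so line and slide cannot be told apart. Between PBS arrays at 6 h 5 of 11 member probes passed, 4 higher and 1 lower in H1975, beside 32.4% of all probes. At 24 h 5 passed again, the same probes in the same directions, beside 32.9% of all probes. The share of members that passed was thus not far from that of the whole array, and the medians of the members were -0.24 and -0.11 beside 0.06 and 0.08.
ANKRD1 was higher in H1975, with PBS levels at 6 h of -4.88, -4.47 and -4.00 in A549 and -2.37, -1.30 and -0.99 in H1975, without overlap. The 6 h difference of 2.90 (standard error 0.51, limma adjusted p = 8.03e-05) was a 7.45-fold higher mean, and the 24 h difference was 2.36. THBS1 was higher at 6 h by 2.16 (standard error 0.26, limma adjusted p = 5.91e-07), at 24 h by 1.56, and its second probe gave 2.60 and 1.84. CYR61 was higher by 1.54 (standard error 0.26, limma adjusted p = 5.26e-05) and 1.37. CTGF, in contrast, overlapped between the lines, with 0.76 (95% interval -0.15 to 1.66, limma adjusted p = 0.142) at 6 h and 0.34 (95% interval -0.56 to 1.25, limma adjusted p = 0.51) in the 24 h arrays.
TEAD1 was lower in H1975, with PBS levels at 6 h of 3.15, 2.69 and 2.68 in A549 and 1.36, 1.84 and 1.87 in H1975. At 6 h it differed by -1.15 (standard error 0.21, limma adjusted p = 0.00011), and the 24 h value was -1.04 (limma adjusted p = 0.000304), close to the fold limit. It moved under that limit without A549 PBS replicate 1 (-0.996 at 6 h and -0.93 at 24 h), without H1975 PBS replicate 1 at 6 h (-0.98), without H1975 PBS replicate 3 at 24 h (-0.92), and at 24 h with quantile normalization (-0.97) or run as a block (-0.96). AXL was lower in H1975, with -0.99 at 6 h (standard error 0.19, limma adjusted p = 0.00016) and -0.73 at 24 h (limma adjusted p = 0.00252), and AMOTL2 was lower with -0.63 and -0.52 (limma adjusted p = 0.000678 and 0.00355). At 6 h AXL passed the fold limit under normexp correction (-1.01), in the authors' processed values, with run as a block (-1.02) and without A549 PBS replicate 1 (-1.07).
Markers of other cells also differed between the lines, in both directions. Of 7 fibroblast markers 4 were tested, of which 3 were higher in H1975 at 6 h and LUM was lower, with a log2 difference of -4.24. These passed beside 32.4% of all probes. The log2 of the summed signal of all 7, dim ones included, ranged from -1.79 to -0.04 in A549 and from 1.34 to 2.80 in H1975 with PBS at 6 h. COL1A2 and PDGFRB were not well above background in A549, COL3A1 and DCN were not in either line, and LUM was not in H1975. Of 6 immune and endothelial markers 5 were tested and 3 were higher in H1975 at 6 h, beside the same 32.4% of all probes. The log2 of the summed signal of all 6 ranged from -0.47 to 0.03 in A549 and from 1.06 to 1.69 in H1975. Their part in the differences between the lines was not tested.

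**Figure D4:**
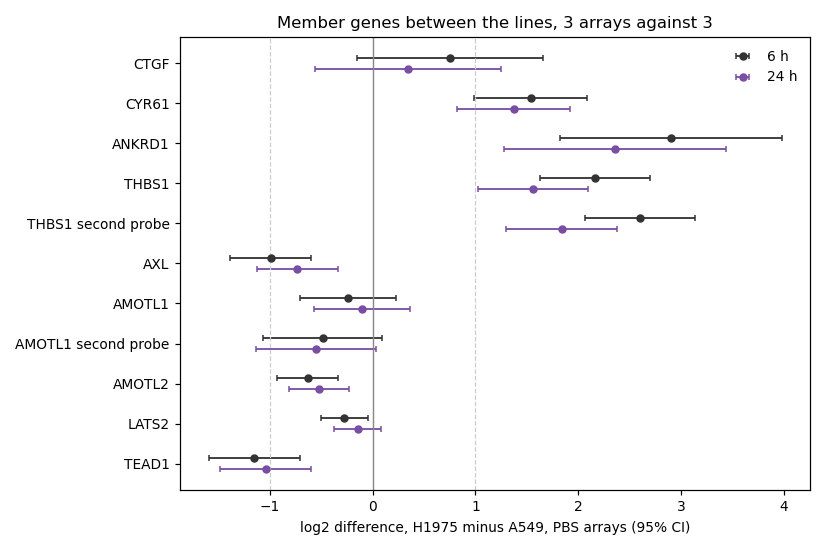
Log2 difference of each member probe between the lines in PBS, H1975 minus A549 (x axis, bars are 95% intervals of the limma fit, 3 arrays against 3), at 6 h and at 24 h, with dashed lines at the fold limit. ANKRD1, THBS1 and CYR61 lie above 1 and TEAD1 below -1 at both times, and the interval of CTGF includes 0.

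The coactivators and the other TEAD factors did not pass in any drug comparison. In H1975 at 6 h YAP1 differed by -0.06 and WWTR1, which encodes TAZ, by 0.16, and in H1975 at 24 h they gave -0.12 and -0.04. At 6 h in H1975 TEAD2 gave -0.22, TEAD3 -0.30 and TEAD4 -0.21, with limma adjusted p of 0.812, 0.584 and 0.584. Of 34 listed genes of the Hippo pathway and its nuclear factors, 31 were tested and none passed in the 4 drug comparisons, with medians between -0.06 and 0.00. Between the lines in PBS 2 of them were higher in H1975 and 3 lower at 6 h, and 4 higher and 3 lower at 24 h. These 5 and 7 of 31 genes were a smaller share than the 32.4% and 32.9% of all probes that passed. The list shares genes with the members, and TEAD1 was among those lower at both times. TEAD3 went the other way at 24 h, with a log2 difference of 1.03 (limma adjusted p = 3.7e-05). NF2, the tumor suppressor Merlin upstream of the Hippo kinases, was higher by 1.35 at 6 h and 1.53 at 24 h, and FRMD6, another upstream component, by 1.05 and 1.26. LIMD1, which binds LATS kinases, was lower, at -1.25 and -1.44. The limma adjusted p of these 3 genes lay between 7.94e-09 and 2.73e-05.

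Further YAP and TAZ targets outside the 9 members gave 2 passes with the drug. Of 20 listed, 19 were tested, and in H1975 at 6 h 2 were lower and none higher, beside 0.491% of all probes that passed in either direction. EDN1, which encodes the vasoconstrictor endothelin 1, was lower, at -1.44 (standard error 0.28, limma adjusted p = 0.0106), and F3, which encodes tissue factor, was lower at -1.24 (standard error 0.24, limma adjusted p = 0.0119). The median of the list was -0.05 beside 0.05 over all probes, and 9 of the 19 were higher. In A549 at 6 h 4 of the 19 were higher, with a median of -0.15 beside -0.01 over all probes. At 24 h in H1975 EDN1 gave 0.06 and F3 -0.01, and the drug differences of both genes changed between the times by 1.50 and 1.22 without passing (limma adjusted p = 0.428 and 0.43). In A549 at 6 h they gave -0.31 and -0.32 (limma adjusted p = 1). In H1975 PBS BIRC3, an inhibitor of apoptosis, was lower at 24 h than at 6 h, at -1.59 (limma adjusted p = 0.00045). Between the lines 3 genes of the list were higher and 9 lower in H1975 at 6 h, beside 32.4% of all probes, and 4 higher and 9 lower at 24 h, beside 32.9%.
Targets of SRF and its coactivator MRTF, which respond to actin and share several genes with YAP, gave no pass among 18 in the 4 drug comparisons, with a median of -0.13 in H1975 at 6 h. Between the lines 5 of them were higher and 2 lower at 6 h, beside 32.4% of all probes. TGFβ response genes gave 1 pass among 18 in the 4 drug comparisons. It was ID2, an inhibitor of DNA binding, which was higher in H1975 at 6 h by 1.04 (standard error 0.17, limma adjusted p = 0.00396), beside 0.491% of all probes that passed. Of this list 2 were higher and 9 lower in H1975 at 6 h between the lines, beside the same 32.4%.

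The genes whose levels over the 24 arrays were most like those of CTGF, CYR61 and ANKRD1 were found by Pearson's r after the mean of each line was subtracted, among 14338 genes well above background on all arrays. The 24 points share 2 lines, the treatments and the runs, so r is a description only. For CTGF they were TMEM158 (r = 0.94), LOC100130938 (r = 0.91) and ROR1 (r = 0.90). For CYR61 they were NAV3 (r = 0.83), PEA15 (r = 0.82) and USP31 (r = 0.81), and for ANKRD1 they were KCTD1 (r = 0.85), EDN1 (r = 0.84) and SMURF2 (r = 0.83). Among the members themselves CTGF was closest to ANKRD1 (r = 0.79, rank 21) and CYR61 (r = 0.75, rank 51), followed by THBS1 (r = 0.69), and it showed little likeness to TEAD1 (r = 0.09) or AXL (r = 0.29).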

How the data were processed

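Total RNA of the 24 samples was labeled with Cy3 and hybridized to one-color Agilent arrays. The authors extracted spot intensities with Agilent Feature Extraction 11.5.1.1, which subtracts background and marks outlier spots and spots well above background, and deposited them with probe positions on hg19. The deposited table of log2 values holds the same arrays with each probe centered on its median, and its differences between arrays tracked those of the scanner files (Pearson r = 0.9998 over probes).

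Here each array's 75th percentile, taken over 43118 spots without controls, was subtracted from the log2 of the processed intensity, and a probe's value was the mean of its spots not marked as outliers. A probe was well above background on an array where at least 0.5 of its spots were, and the 23827 probes well above background on all 3 arrays of a group were tested. All 8 groups entered 1 fit with limma 3.58.1 (lmFit and eBayes) in R 4.3.3, with 16 residual degrees of freedom, and p-values were adjusted over all probes tested. The study's family-wise permutation cannot reach its threshold with 3 arrays against 3, so the Benjamini-Hochberg adjusted p took its place beside the fold limit of 2. A gene of a list is represented by its brightest probe, and members by every probe. Named genes are the members, YAP1, WWTR1, the TEAD factors, the largest differences that passed in each list, and the 3 genes most like CTGF, CYR61 and ANKRD1. Alternatives were normexp correction (offset 50), quantile normalization, the authors' log2 values, no or a stricter filter, replicate block, run, slide, fits of only the arrays compared, Holm adjustment, no fold limit, the mean of a gene's probes, and each array left out. A pair of alternatives was added after seeing the data, run within each line as a block and the fit without both A549 arrays of replicate 3 at 24 h. The number of arrays limits the precision. Members and gene lists were chosen with earlier results of these data known. Promoters came from RefSeq (GRCh38.p14), in a set that did not hold those of CYR61 and TEAD1. No annotation of hg19 was used, so exons are not given for the probes. Figures were drawn with matplotlib 3.10.9 in Python 3.11.15.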

Additional observations from a re-analysis of the deposited data

How the results depend on the processing

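Counts of member probes that passed moved in few settings. Holm adjustment left 2 of the 5 probes between the lines at 6 h (both of THBS1) and 1 at 24 h. The share of all probes under Holm adjustment is not given, so these counts are a description only. Without the fold limit 8 of the 11 passed between the lines at 6 h. In that comparison 14922 of all 23827 probes had an unadjusted limma p under 0.05, as had 8 member probes. With the drug in H1975 at 24 h 2 passed without the limit (AXL and LATS2), beside 6.26% of all probes. In H1975 at 6 h 1 member, CTGF, passed with run as a block, with run within each line as a block and with slide as a random block. The last 2 of these settings group the arrays nearly alike. For the change of the drug difference between the times in H1975, 1 member (CTGF) passed with run within each line as a block. Leaving out single arrays gave 0 to 1 in H1975 at 24 h (AXL, as given above) and 4 to 5 between the lines at either time. The replicate block gave 0 in every drug and time comparison. Numbers paired the samples poorly in H1975 at 6 h, where the deviations of same-numbered arrays correlated at -0.48, 0.43 and -0.68, against 0.82, 0.50 and 0.70 by run, and in A549 at 24 h (0.39, 0.08 and -0.10), so the replicate block result stands only here. Blocks within a line allow no test between lines.

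No member difference that passed changed its sign under the alternatives run, and single members kept their side of the threshold in 2728 of 2759 recomputed values. Genes of the other lists were not recomputed. Normexp correction moved the median of all probes in H1975 at 6 h by 0.24, and against the median of 0.29 under it CTGF gave -1.21, CYR61 -0.97, ANKRD1 -0.79 and AMOTL2 -0.54. It moved the medians between the lines by -0.11 and -0.12. The number of arrays limits the precision, and the AMOTL1 probes depended on the background correction although both exceeded background on every array.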
